A study of Homo sapiens with 6 samples.

Results

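AXL, the TAM receptors related to it, their ligands and 5 further receptor kinases were followed in RKO cells, which come from a human colorectal carcinoma and grow as an established line. RNA sequencing compared RKO cells with a short hairpin RNA against TRMT6 (shTRMT6, 3 libraries) with RKO cells carrying a control hairpin (shControl, 3 libraries). TRMT6 pairs with the catalytic subunit TRMT61A to methylate tRNA, and the labels mark the control cells as WT and the others as TRMT6 knockdown. The labels name a single TRMT6 hairpin, give no clone or culture for any library and no time after the hairpin was introduced, so a p-value below covers the spread among libraries only, and that spread may be technical. The 10 genes are AXL, TYRO3 and MERTK (the TAM receptors), GAS6 and PROS1 (their ligands), and MET, EPHA2, EPHB4, IGF1R and FGFR1. They are 10 of the 20289 genes in the table, and all 10 reached the mean of 1 FPKM (fragments per kilobase of gene and depth-scaled, the unit of the table) required for testing. AXL was selected on its lower FPKM in the shTRMT6 libraries, so its values are given as a description with no test. The other 9 were listed as relatives of AXL or as other receptor kinases, with earlier results of the same comparison known.

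Receptor tyrosine kinases are membrane proteins that bind a ligand outside the cell, pair up and phosphorylate tyrosines inside it, where adaptors then dock. GAS6 binds all TAM receptors, while PROS1 is known as a ligand of TYRO3 and MERTK and not of AXL. Both are secreted proteins that attach through a vitamin K-dependent domain to phosphatidylserine on dying cells. The TAM receptors are best known for the clearance of such cells and for restraining inflammation. In carcinomas AXL is known for its link to invasion, a mesenchymal state and resistance to kinase inhibitors. MET is the receptor of hepatocyte growth factor, EPHA2 and EPHB4 bind ephrins on neighbouring cells, IGF1R binds insulin-like growth factors and FGFR1 fibroblast growth factors.

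The stretch before the transcript start is shown for AXL at both starts of the RefSeq table, for TYRO3 (at the first of its 2 starts) and EPHA2, which fell, and for MET, which rose, so that their letters can be compared. Sequences are from RefSeq, build GRCh38.p14, 5′ to 3′ on the strand of the gene, within the 250 bases before the RefSeq start and ended where GENCODE release 29 places the first base of an exon of the gene. Capitals mark matches on either strand to GGGCGG (the GC box bound by SP1), TGANTCA (AP-1), GGAATG (TEAD) or ACGTG (the core bound by hypoxia-inducible factors). SP1, AP-1, TEAD and hypoxia-inducible factors are reported to act on AXL. The AXL window is chr19:41218973-41219202 (plus strand), the window of its second start chr19:41226505-41226754 (plus), that of TYRO3 chr15:41558962-41559033 (plus), that of EPHA2 chr1:16156088-16156319 (minus) and that of MET chr7:116671946-116672195 (plus). GENCODE release 29 begins the AXL gene at base 41219203 and the TYRO3 gene at base 41557675. The window of the second AXL start and the TYRO3 window therefore lie inside the annotated genes.
AXL: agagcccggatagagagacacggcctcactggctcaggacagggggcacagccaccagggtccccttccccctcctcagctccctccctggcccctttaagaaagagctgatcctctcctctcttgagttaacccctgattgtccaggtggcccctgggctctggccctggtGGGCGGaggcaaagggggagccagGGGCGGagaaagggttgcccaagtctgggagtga
AXL second start: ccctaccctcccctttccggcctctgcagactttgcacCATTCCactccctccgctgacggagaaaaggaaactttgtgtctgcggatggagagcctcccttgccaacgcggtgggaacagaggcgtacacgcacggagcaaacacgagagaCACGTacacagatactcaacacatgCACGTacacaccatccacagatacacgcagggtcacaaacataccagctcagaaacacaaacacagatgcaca
TYRO3: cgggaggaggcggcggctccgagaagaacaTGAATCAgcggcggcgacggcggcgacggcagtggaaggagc
EPHA2: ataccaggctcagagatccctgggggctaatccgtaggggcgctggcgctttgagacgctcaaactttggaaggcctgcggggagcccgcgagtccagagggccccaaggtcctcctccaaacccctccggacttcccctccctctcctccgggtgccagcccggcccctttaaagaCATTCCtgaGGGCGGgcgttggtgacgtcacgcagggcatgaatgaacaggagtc
MET: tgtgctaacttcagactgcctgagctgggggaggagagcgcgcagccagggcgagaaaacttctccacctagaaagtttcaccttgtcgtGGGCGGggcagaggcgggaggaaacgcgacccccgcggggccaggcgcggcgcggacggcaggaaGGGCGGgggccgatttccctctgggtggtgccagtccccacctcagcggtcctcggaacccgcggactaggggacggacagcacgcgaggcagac

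The AXL stretch holds 2 GC boxes, which begin 78 and 54 bases before the RefSeq start, and no match to the other motifs. Before its second start there is no GC box, but a TEAD match begins 212 bases and hypoxia cores 98 and 73 bases upstream. TYRO3 has 1 TGANTCA match, 220 bases upstream, which reads TGAATCA and so is not the AP-1 site itself. It also has 3 GC boxes nearer to the start, beyond the stretch printed. The 250 bases before its second start, not printed, hold no match. EPHA2 has a TEAD match next to a GC box (73 and 64 bases upstream), and MET has 2 GC boxes (160 and 95 bases upstream). Of 35116 windows of 250 bases before annotated starts, 42.6% hold a GC box and 6.57% a TGANTCA match. A TEAD match is in 11.9% of them and a hypoxia core in 18.5%. A match describes the letters and is not evidence that a factor binds there.

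The targeted gene and the identity of the cells were looked at first. TRMT6 read 1.58, 1.73 and 1.09 FPKM in the shTRMT6 libraries, against 14.43, 17.96 and 16.85 FPKM in the shControl libraries (11.2-fold lower; limma adjusted p = 4.33e-08; exact two-sided permutation p = 0.1, the smallest that 3 against 3 allows). Depth, estimated roughly from the steps between low values, came to 18000000 to 20100000 fragments in shTRMT6 and 21300000 to 28200000 fragments in shControl. Of the epithelial markers EPCAM, KRT8 and KRT18 were present, while KRT19 and CDH1 were listed at 0 in all 6 libraries. KRT18 (186.3 ± 7.11 FPKM in shTRMT6 and 118.4 ± 15.6 FPKM in shControl; limma adjusted p = 0.00053) and EPCAM (6.29 ± 1.08 FPKM in shTRMT6 and 4.197 ± 1.03 FPKM in shControl; limma adjusted p = 0.0282) were higher in shTRMT6, EPCAM not past the threshold without shControl replicate 1 (limma adjusted p = 0.0863). KRT8 averaged 10.04 ± 0.3 FPKM in shTRMT6 and 9.597 ± 1.37 FPKM in shControl (limma adjusted p = 0.687). The part of these markers in the differences below was not tested. Of 7 markers of intestinal epithelium only CDX2 reached 1 FPKM, and CDX1, VIL1, KRT20 and CDH17 were at 0 throughout. Summed fibroblast markers stayed at 0.03 to 0.11 FPKM in shTRMT6 and 0.1 to 1.38 FPKM in shControl, and endothelial markers at 0.01 to 0.09 FPKM in shTRMT6 and 0.01 to 0.17 FPKM in shControl. Of the blood cell markers reported here (CD68, PTPRC, CD3E, CD14 and ITGAM) only CD68, a lysosomal protein that tumour lines can also make, was high (871.3 ± 129 FPKM in shTRMT6 and 726.5 ± 73.1 FPKM in shControl; SD, n = 3 each), and PTPRC, CD3E and ITGAM were at or near 0.

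AXL (ENSG00000167601, chromosome 19, bases 41219203 to 41261766 on the plus strand, GENCODE release 29) was an abundant mRNA in these cells. It read 153.98, 150.81 and 188.55 FPKM in the shTRMT6 libraries, against 332.85, 325.15 and 395.22 FPKM in the shControl libraries. The highest shTRMT6 library lay below the lowest shControl library, and the third library was the highest of its group in both. The group means were 164.4 ± 20.9 FPKM in shTRMT6 and 351.1 ± 38.4 FPKM in shControl (SD, n = 3 each), a level 2.14-fold lower in shTRMT6. The difference was -1.09 on the log2(FPKM + 1) scale (SE 0.11), the 27th lowest among the 10592 genes that averaged 1 FPKM or more. The ratio of shTRMT6 to shControl was 0.463, 0.464 and 0.477 for libraries of the same number, which the labels do not describe as pairs. By its mean over all libraries AXL ranked 274th from the top of those genes, above 97.4% of them. In bulk RNA a lower level in every cell and a loss from some of the cells cannot be told apart.

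TYRO3, the second TAM receptor by level, fell as well. It read 20.33, 21.16 and 25.75 FPKM in shTRMT6, against 32.38, 31.78 and 36.07 FPKM in shControl, and the groups did not overlap. The level was 1.49-fold lower in shTRMT6 (22.4 ± 2.92 FPKM in shTRMT6 and 33.4 ± 2.32 FPKM in shControl; log2 difference -0.56, SE 0.11, limma adjusted p = 0.00217). MERTK, the third TAM receptor and best known from phagocytes, was low throughout. It had 2.28, 2.41 and 3.21 FPKM in shTRMT6, against 2.83, 3.02 and 3.59 FPKM in shControl. These groups overlapped and the difference did not pass the test (-0.20, SE 0.14, limma adjusted p = 0.286), although the shTRMT6 library was the lower one in all 3 pairs of the same number. The lowest MERTK value rests on about 170 fragments by the depth estimate, against about 13000 for the lowest AXL value.

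AXL made up most of the TAM receptor mRNA in both groups. Its share of the summed FPKM of the 3 receptors was 87.2%, 86.5% and 86.7% in the shTRMT6 libraries, against 90.4%, 90.3% and 90.9% in the shControl libraries. TYRO3 held 11.5 to 12.1% in shTRMT6 and 8.29 to 8.83% in shControl, and MERTK 1.29 to 1.48% in shTRMT6 and 0.769 to 0.839% in shControl. The sum over the 3 receptors was 189.5 ± 24.3 FPKM in shTRMT6 and 387.6 ± 41.1 FPKM in shControl. These sums and shares follow from AXL, so they describe its level in another form.

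Neither ligand mRNA was lower in shTRMT6. PROS1, protein S, which also serves as an anticoagulant cofactor in blood, read 15.23, 16.00 and 16.48 FPKM in shTRMT6, against 9.01, 12.73 and 14.12 FPKM in shControl. The groups did not overlap, and PROS1 rose 1.33-fold (15.9 ± 0.631 FPKM in shTRMT6 and 12.0 ± 2.64 FPKM in shControl; log2 difference 0.40, SE 0.14, limma adjusted p = 0.0383). Its low value in shControl replicate 1 carried much of that: without this library the difference was 0.23 (limma adjusted p = 0.0853), and leaving out any 1 shTRMT6 library also ended the call (limma adjusted p = 0.0734, 0.0844 and 0.0994 without replicates 1, 2 and 3). PROS1 shares 3.76% of its 75-base windows with other genes, most with the pseudogene PROS2P, so its count of fragments is slightly uncertain. GAS6, the ligand that binds all TAM receptors and AXL most tightly, read 11.82, 11.68 and 14.84 FPKM in shTRMT6, against 10.32, 10.27 and 11.76 FPKM in shControl. The lowest shTRMT6 value lay just under the highest shControl value, and the difference did not pass the test (0.22, SE 0.12, limma adjusted p = 0.165). In 7.01% of its exon bases GAS6 overlaps the antisense gene GAS6-AS1, and whether counting used strand is not given in the sources used here. Summed over both ligands the level was 27.1 to 31.3 FPKM in shTRMT6 and 19.3 to 25.9 FPKM in shControl. The receptor sum, which is mostly AXL, per ligand sum was 6.30 to 6.94 in shTRMT6 and 15.6 to 19.0 in shControl. The ligand sum includes PROS1, which is not known as a ligand of AXL, so this ratio is not AXL per AXL ligand.

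**Figure D1:**
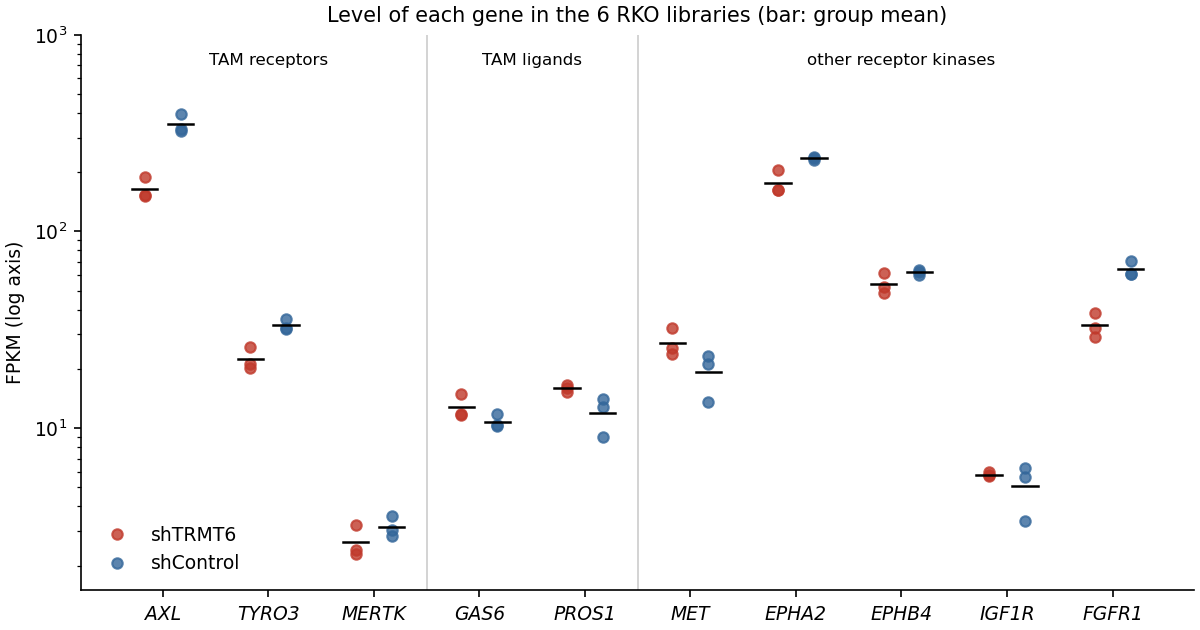
FPKM of the 10 genes in each library on a log axis, shTRMT6 (red) left of shControl (blue), with a bar at each group mean (n = 3). AXL, TYRO3, EPHA2 and FGFR1 are lower in every shTRMT6 library than in any shControl library, PROS1 and MET higher, and the other 4 overlap.

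FGFR1, a receptor for fibroblast growth factors, came closest to AXL among the 9 other genes. It read 32.44, 28.89 and 38.45 FPKM in shTRMT6, against 61.03, 60.84 and 71.09 FPKM in shControl, with no overlap. The level was 1.93-fold lower in shTRMT6 (33.3 ± 4.83 FPKM in shTRMT6 and 64.3 ± 5.86 FPKM in shControl; log2 difference -0.94, SE 0.12, limma adjusted p = 0.000121). EPHA2, an ephrin receptor abundant in epithelial tumours, read 161.62, 162.15 and 204.74 FPKM in shTRMT6, against 236.20, 229.92 and 239.96 FPKM in shControl. It fell 1.34-fold (176.2 ± 24.7 FPKM in shTRMT6 and 235.4 ± 5.07 FPKM in shControl; log2 difference -0.42, SE 0.10, limma adjusted p = 0.00696), with the third shTRMT6 library nearer to the controls than the other two. EPHB4, the receptor of ephrin-B2, read 52.25, 48.49 and 61.80 FPKM in shTRMT6, against 63.45, 60.12 and 62.28 FPKM in shControl. Here the third shTRMT6 library lay among the controls, and the difference did not pass (-0.20, SE 0.10, limma adjusted p = 0.155); without that library it did (-0.29, limma adjusted p = 0.0337).

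MET moved the other way. It read 23.78, 25.42 and 32.40 FPKM in shTRMT6, against 13.60, 21.22 and 23.38 FPKM in shControl, so the groups were separated by a narrow gap. The level rose 1.40-fold (27.2 ± 4.58 FPKM in shTRMT6 and 19.4 ± 5.14 FPKM in shControl; log2 difference 0.49, SE 0.17, limma adjusted p = 0.0403). As with PROS1, shControl replicate 1 was low: without it the difference was 0.26 (limma adjusted p = 0.134), and the call also ended without shTRMT6 replicate 2 (limma adjusted p = 0.0532) or 3 (limma adjusted p = 0.162). IGF1R, the receptor of insulin-like growth factors, read 5.78, 5.68 and 5.96 FPKM in shTRMT6, against 3.37, 5.63 and 6.25 FPKM in shControl. Apart from shControl replicate 1 the libraries were close to each other, and the difference of 0.20 (SE 0.16, limma adjusted p = 0.375) was -0.027 without that library.

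Of the 9 genes other than AXL, 3 fell, 2 rose and 4 did not pass the test, and the groups did not overlap for 5. Of all 10592 genes tested, 35.4% were called at a limma adjusted p below 0.05 (16.1% lower and 19.3% higher in shTRMT6), and 48.3% had groups that did not overlap. Changed genes were thus common in this comparison. The share called over all genes was larger with the replicate number as a block (46.8%; 21.3% lower and 25.5% higher) and with the trend on GC content removed (39.2%; 19.4% lower and 19.8% higher), and the counts given for gene lists under those settings are to be read against it. The median log2 difference was -0.20 over the 9 genes and 0.02 over all genes tested.

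The order of the levels differed at the top, which restates the fall on which AXL was chosen. In shTRMT6 EPHA2 and AXL came first with overlapping values, followed by EPHB4, FGFR1, MET, TYRO3, PROS1, GAS6, IGF1R and MERTK. In shControl AXL stood above EPHA2 by 1.49-fold with no overlap, followed by FGFR1, EPHB4, TYRO3, MET, PROS1, GAS6, IGF1R and MERTK. Neighbours whose ranges overlapped in shTRMT6 were EPHA2 and AXL, FGFR1 and MET, and MET and TYRO3. In shControl they were FGFR1 and EPHB4, MET and PROS1, PROS1 and GAS6, and IGF1R and MERTK.

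Fold changes in this comparison varied with the GC content of the transcript, and that moved with several of these genes. The median log2 difference was 0.27 in the tenth of tested genes with the lowest GC content (up to 38.7%) and -0.14 in the tenth with the highest (from 62.2%). PROS1 and MET, which rose, have the lowest GC content of the 10 (40.5% and 42.4%), and tested genes within 1 point of them had medians of 0.22 and 0.20. With each library's trend on GC content removed their differences were 0.18 (limma adjusted p = 0.204) and 0.30 (limma adjusted p = 0.165), and GAS6, at 63.7% GC, passed with a difference of 0.37 (limma adjusted p = 0.026). Tested genes within 1 point of AXL (53.9% GC), FGFR1 (56.3%), TYRO3 (53.1%), EPHA2 (60.3%) and EPHB4 (62.6%) had medians of -0.06, -0.13, -0.07, -0.13 and -0.14. After removal of the trend AXL stood at -0.99, FGFR1 at -0.81 (limma adjusted p = 0.000497), TYRO3 at -0.48 (limma adjusted p = 0.00473), EPHA2 at -0.28 (limma adjusted p = 0.0375) and EPHB4 at -0.046 (limma adjusted p = 0.684).

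**Figure D2:**
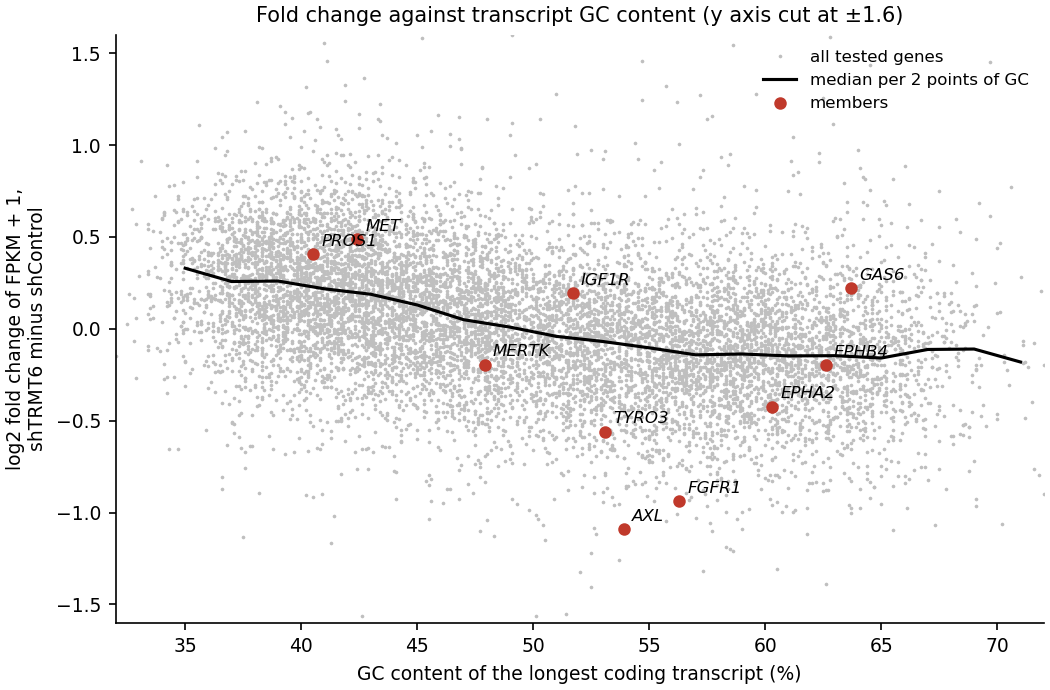
Difference in log2(FPKM + 1), shTRMT6 minus shControl, against GC content of the transcript in percent, for all tested genes (grey), the 10 genes (red) and the median per 2 points of GC content (line). PROS1 (0.40) and MET (0.49) sit at the low end of GC content, where the line is above 0, and AXL (-1.09) and FGFR1 (-0.94) lie far under the line.

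The wider family of receptor tyrosine kinases showed where these genes stand. Of 58 such genes, 23 were tested, 15 of them outside the 10 genes described here, and 16 of the 58 were listed at 0 in all libraries. Of those 15, 6 fell, none rose and 9 did not pass, with a median log2 difference of -0.27 against 0.02 over all genes tested (-0.16 for these 15 with the GC trend removed). Of all genes tested 16.1% were called lower and 19.3% higher. FGFR4, a relative of FGFR1, fell 1.85-fold (7.43 ± 0.953 FPKM in shTRMT6 and 13.7 ± 0.52 FPKM in shControl; limma adjusted p = 0.000282). ERBB3, an ERBB receptor with a weak kinase, fell 1.52-fold (11.0 ± 2.46 FPKM in shTRMT6 and 16.8 ± 1.73 FPKM in shControl; limma adjusted p = 0.00715). PTK7, a kinase-dead receptor of WNT signalling, fell 1.45-fold (52.5 ± 7.76 FPKM in shTRMT6 and 76.2 ± 4.54 FPKM in shControl; limma adjusted p = 0.00286). The other 3, named after their values were seen, were DDR1, LTK and ERBB2; ERBB2 did not pass with the GC trend removed (limma adjusted p = 0.178), which left 5 that fell and none that rose. AXL held 22.3 to 22.7% of the summed FPKM of all 58 genes in shTRMT6 and 31.1 to 33.7% in shControl, which restates its fall in another form. Without AXL the sum was 567.1 ± 78.2 FPKM in shTRMT6 and 737.7 ± 34.4 FPKM in shControl. The groups did not overlap, which held for 48.3% of all genes tested. Such a sum is weighted by its most abundant genes, EPHA2 above all (176.2 FPKM in shTRMT6 and 235.4 FPKM in shControl). It does not show a fall across the family.

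**Figure D3:**
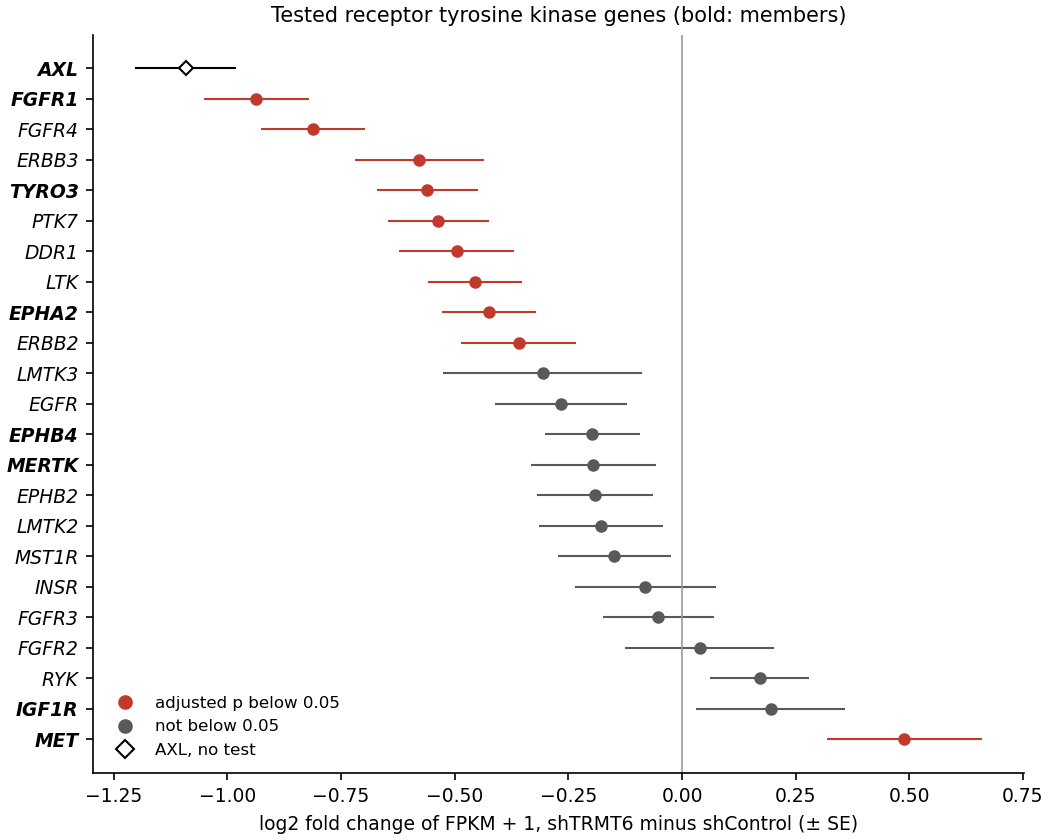
Difference in log2(FPKM + 1), shTRMT6 minus shControl, with its limma SE (n = 3 libraries a group), for the 23 tested receptor tyrosine kinase genes, members in bold. Red points passed an adjusted p below 0.05 and AXL (open diamond) has no test; MET is the one red point above 0.

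Several enzymes that mature vitamin K-dependent or other secreted proteins fell. Of 9 tested genes of ligand maturation, other ligands and receptor shedding, 4 fell, 1 rose and 4 did not pass. The median log2 difference was -0.30, but -0.46 with the GC trend removed and -0.47 without shControl replicate 1. With the replicate number as a block 6 fell and 1 rose. Of all genes tested 16.1% were called lower and 19.3% higher (21.3% and 25.5% with the block). GGCX, the carboxylase that makes the vitamin K-dependent domain of GAS6 and PROS1, fell 2.01-fold (4.47 ± 0.423 FPKM in shTRMT6 and 9.003 ± 0.679 FPKM in shControl; limma adjusted p = 0.000199). VKORC1, which recycles vitamin K for that enzyme, fell 1.53-fold (71.5 ± 4.89 FPKM in shTRMT6 and 109.6 ± 6.84 FPKM in shControl; limma adjusted p = 0.000497), but it shares 59.6% of its 75-base windows with other annotated genes, so its fragments may be divided between them. FURIN, a protease that cleaves proproteins, fell 1.53-fold (67.0 ± 7.92 FPKM in shTRMT6 and 102.4 ± 5.93 FPKM in shControl; limma adjusted p = 0.000843). Named after their values were seen, VKORC1L1 also fell (limma adjusted p = 0.0411) and NQO1, a quinone reductase that can reduce vitamin K, was the 1 that rose (limma adjusted p = 0.000804). ADAM10, a protease that sheds AXL and was likewise named after its values were seen, read 32.17, 36.89 and 32.95 FPKM in shTRMT6 and 24.44, 36.56 and 39.60 FPKM in shControl, with overlap and a difference that did not pass (limma adjusted p = 0.837). ADAM17, the other shedding protease and also named after its values were seen, read 9.11, 9.64 and 12.07 FPKM in shTRMT6 and 9.76, 13.78 and 15.34 FPKM in shControl. It was lower in all 3 pairs of the same number and did not pass (log2 difference -0.30, limma adjusted p = 0.151), but it did with the GC trend removed (-0.49, limma adjusted p = 0.0185).

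Around MET, some genes of the axis fell. Of 8 tested genes of the axis besides MET, 4 fell, none rose and 4 did not pass (median log2 difference -0.44, against 0.02 over all genes tested). With the GC trend removed 5 fell and none rose (median -0.36). Of all genes 16.1% were called lower in the main fit and 19.4% with the GC trend removed. The proteoglycan SDC1 fell 1.77-fold (82.5 ± 13.4 FPKM in shTRMT6 and 145.8 ± 12.9 FPKM in shControl; limma adjusted p = 0.000307). SPINT1, which inhibits the proteases that activate hepatocyte growth factor, fell 1.43-fold (limma adjusted p = 0.00334), PLXNB1, a plexin that associates with MET, 1.49-fold (limma adjusted p = 0.00597), and CBL, a ubiquitin ligase of receptor kinases named after its value was seen, also fell (limma adjusted p = 0.00514). With the replicate number as a block 5 fell and 1 rose. CD44, of the same axis and named after its values were seen, went the other way without passing. It averaged 175.7 ± 18.7 FPKM in shTRMT6 and 144.4 ± 20.8 FPKM in shControl (log2 difference 0.28, limma adjusted p = 0.0677). Its groups overlapped, and the shTRMT6 library was the higher one in all 3 pairs of the same number. HGF, the ligand of MET and also named after its values were seen, was abundant, at 158.77, 165.55 and 186.10 FPKM in shTRMT6 and 161.55, 197.59 and 222.04 FPKM in shControl. These groups overlapped, and the difference did not pass (log2 difference -0.18, limma adjusted p = 0.251) unless the GC trend was removed (limma adjusted p = 0.0111).

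In the ephrin, IGF and FGF axes 1 of 7, 2 of 5 and 2 of 6 tested genes were called, beside 35.4% of all genes. These lists are too short to set apart from that share. Of 7 tested EPH receptors and ephrins besides EPHA2 and EPHB4, EFNB2, the ligand of EPHB4, rose 1.32-fold (18.2 ± 2.02 FPKM in shTRMT6 and 13.8 ± 2.46 FPKM in shControl; limma adjusted p = 0.0362), none fell and 6 did not pass. The EFNB2 call ended without any 1 of shTRMT6 replicates 1 to 3 (limma adjusted p = 0.0626, 0.0518 and 0.127) or of shControl replicates 1 and 2 (limma adjusted p = 0.103 and 0.0533). Of 5 tested genes of the IGF axis besides IGF1R, IGFBP6, a binding protein that prefers IGF2, rose 1.85-fold (80.0 ± 7.69 FPKM in shTRMT6 and 43.2 ± 2.76 FPKM in shControl; limma adjusted p = 7.95e-05). IGFBP2, another binding protein, fell 1.38-fold (83.2 ± 14.6 FPKM in shTRMT6 and 115.1 ± 12.4 FPKM in shControl; limma adjusted p = 0.0107), a call that ended without shTRMT6 replicate 2 (limma adjusted p = 0.0562), and 3 did not pass. Of 6 tested genes of the FGF axis besides FGFR1, FGFR4 fell and FRS2, the docking protein of FGF receptors, rose 1.56-fold (7.18 ± 0.842 FPKM in shTRMT6 and 4.597 ± 0.162 FPKM in shControl; limma adjusted p = 0.0038), though not with the GC trend removed (limma adjusted p = 0.11), and 4 did not pass.

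Of 27 tested adaptors and attenuators of receptor kinases, 6 rose, 5 fell and 16 did not pass, shares close to the 19.3% higher and 16.1% lower over all genes. Their median log2 difference was 0.07, but -0.006 without shControl replicate 1 and 0.03 with the GC trend removed. With the replicate number as a block 9 rose and 6 fell. SHC1, an adaptor for many of these receptors, rose 1.54-fold (382.66, 361.96 and 360.54 FPKM in shTRMT6, against 256.98, 227.85 and 232.00 FPKM in shControl; limma adjusted p = 0.000293). The ubiquitin ligase CBLB rose 1.71-fold (34.6 ± 2.72 FPKM in shTRMT6 and 20.3 ± 0.644 FPKM in shControl; limma adjusted p = 0.000199) while its relative CBL was among those that fell. NCK1, an adaptor to the actin machinery, rose 1.74-fold (11.6 ± 1.93 FPKM in shTRMT6 and 6.69 ± 0.206 FPKM in shControl; limma adjusted p = 0.00106).

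Transcription factors reported to act on the AXL gene mostly did not pass the test, which holds for most genes tested. Of 17 tested, 2 fell, 2 rose and 13 did not pass, with a median log2 difference of 0.03. Of all genes tested 16.1% were called lower and 19.3% higher. JUN, an AP-1 subunit, fell 1.28-fold (168.4 ± 10 FPKM in shTRMT6 and 215.7 ± 12.4 FPKM in shControl; limma adjusted p = 0.00914), and TEAD2, a partner of YAP1, fell 1.35-fold (12.0 ± 1.22 FPKM in shTRMT6 and 16.3 ± 1.43 FPKM in shControl; limma adjusted p = 0.0138). Neither passed without shTRMT6 replicate 2 (limma adjusted p = 0.0594 and 0.0739). JUND, another AP-1 subunit, rose 1.52-fold with overlapping groups (49.97 ± 7.11 FPKM in shTRMT6 and 32.9 ± 9.4 FPKM in shControl; limma adjusted p = 0.0111; 0.053 without shTRMT6 replicate 1), and YAP1, named after its value was seen, also rose (log2 difference 0.34, limma adjusted p = 0.0383), though not with the GC trend removed (0.17, limma adjusted p = 0.112). With the replicate block 4 rose and 3 fell, and with the GC trend removed 4 rose and 4 fell. Those settings also raised the count over all genes, to 4954 (46.8%) and 4145 (39.2%).

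**Figure D4:**
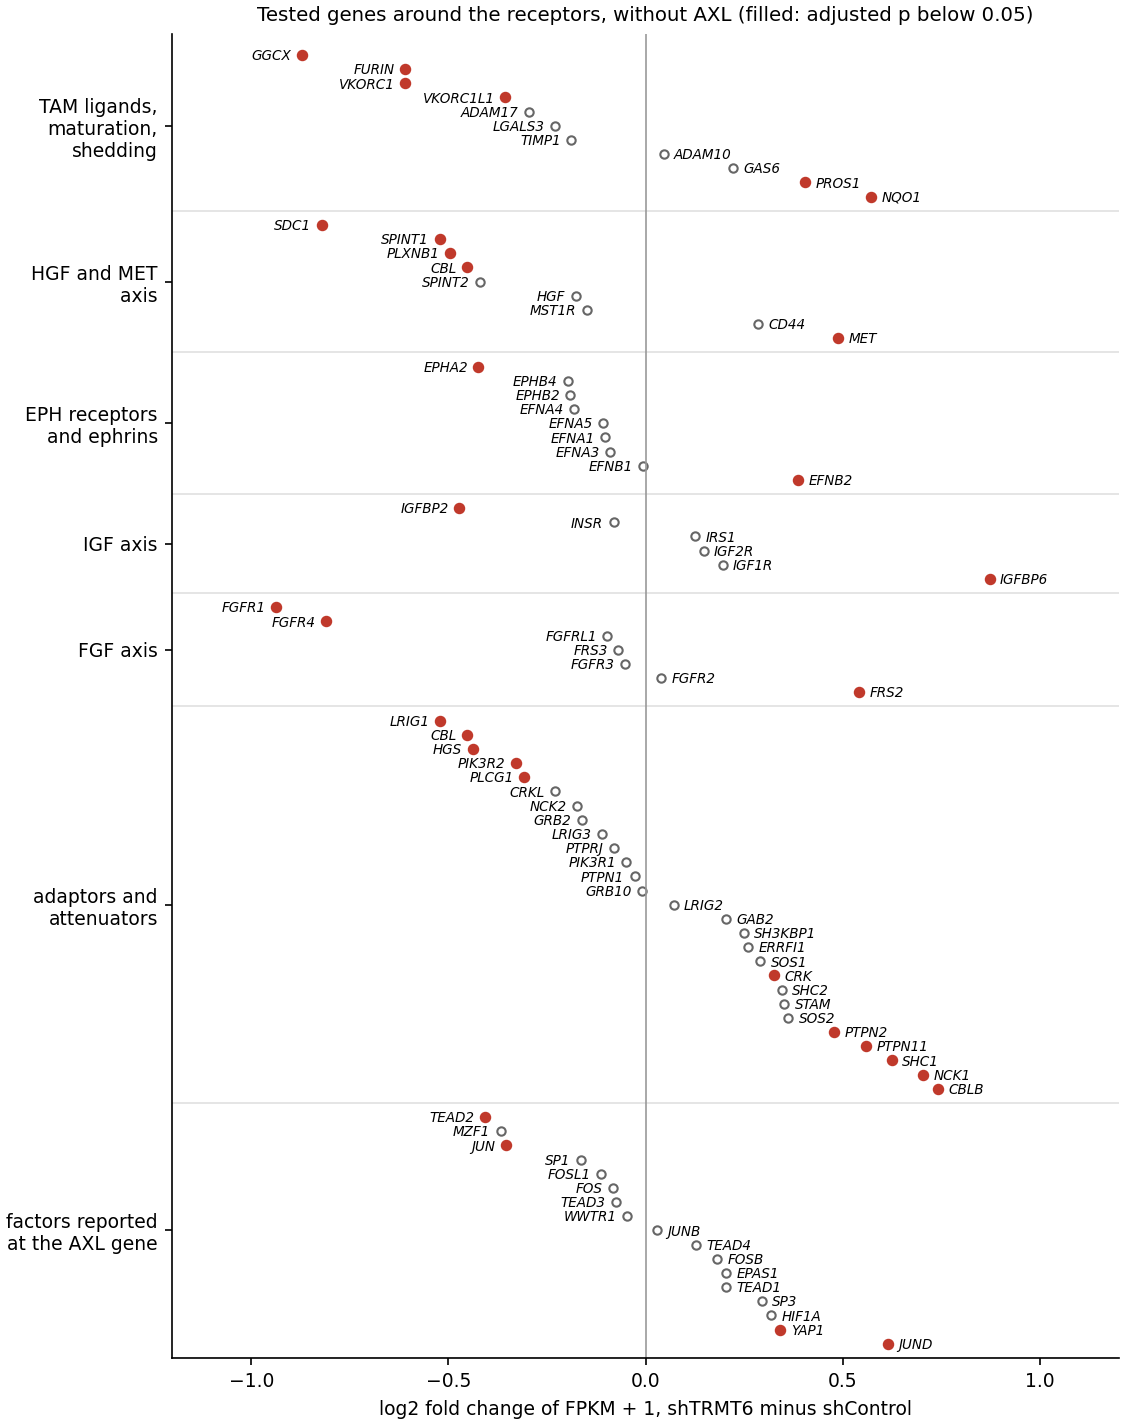
Difference in log2(FPKM + 1), shTRMT6 minus shControl, for tested genes of 7 lists around the receptors, AXL left out; filled red points passed an adjusted p below 0.05 (limma, n = 3 libraries a group). GGCX, SDC1, FGFR1 and FGFR4 lie farthest to the left and IGFBP6 farthest to the right.

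The genes whose pattern over the 6 libraries was most like that of AXL were found by the root mean square difference of their log2(FPKM + 1) values, each centred on the mean of the gene. The nearest of 10591 were GALNT2 (0.03), GLB1L2 (0.04), TAPBP (0.05), PIGL (0.08) and HBEGF (0.09). GALNT2 starts mucin-type O-glycosylation, TAPBP helps load peptides onto MHC class I, PIGL acts in the synthesis of membrane anchors, and HBEGF is a ligand of the EGF receptor. GALNT2 read 11.75, 11.23 and 14.35 FPKM in shTRMT6, against 24.93, 25.19 and 30.08 FPKM in shControl, which repeats the AXL pattern at a far lower level. FGFR1 was the 6th nearest (0.09), EPHA2 ranked 771st and TYRO3 335th. Being near AXL by this measure is a description over 6 libraries in 2 groups and was not tested.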

How the data were processed

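RNA sequencing of RKO cells was deposited as 1 table with an FPKM value per gene and library, made by the authors, per the file headers. Total RNA was extracted with TRIzol and mRNA libraries were made with a NEBNext Ultra kit, per the labels' protocols. Tools listed in the submitters' processing notes, with no role, were HISAT2, RSEM, StringTie 1.3.1, Bowtie2 2.2.8 and fastp 0.18.0; build, annotation and strand setting are not given in the sources used here. Sample titles gave the groups and replicate numbers, and the column names, which abbreviate the groups, were matched to them.

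All 10 genes were matched by symbol to the Ensembl identifiers of the table (20257 of 20289 identifiers named from a table of gene names, 30 more from GENCODE release 29). Coordinates, length and GC content are from GENCODE release 29 (20171 identifiers). Genes averaging 1 FPKM or more (10592) were tested with limma 3.58.1 (R 4.3.3) on log2(FPKM + 1), two-sided, with a trended variance prior and Benjamini-Hochberg adjustment over all of them, threshold 0.05; this scale understates the change of low genes. No p was adjusted over a list, and no list was tested as a set. The fit was tested on simulated data. FPKM is not a count, so no count model was used; depth was estimated from the steps between low values of short genes with a single transcript, which is rough.

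Libraries of the same replicate number deviated together from their group means (Pearson r across genes 0.17 to 0.364 for the same number, -0.288 to 0.0936 for different numbers). Such a pairing comes from the data, not from the labels, and the main fit did not use it. A block on the replicate number was 1 alternative. The others were pseudocounts of 0.1 and 0.5, no filter, a mean of at least 5 FPKM, median-of-ratios scaling, quantile normalization, a robust or untrended prior, a threshold of 0.01, removal of each library's smooth trend on GC content (lowess, span 0.3) alone or with the block, and each library left out.

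The members and lists were chosen with earlier results of these data known. Named were the 10 genes, TRMT6, up to 3 called genes per list with the largest absolute log2 difference (the 2 of highest mean where none was called) and the 5 genes nearest to AXL; others are said to be named after their values were seen.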

Additional observations from a re-analysis of the deposited data

How the results depend on the processing

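The log2 difference of AXL ranged from -1.19 to -0.99 over 17 alternatives. AXL was chosen for its fall in these same libraries, so that range describes its value and is no support for the fall. The direction of the log2 difference held in every alternative for FGFR1, TYRO3, EPHA2, MERTK, EPHB4, GAS6, PROS1 and MET. FGFR1, TYRO3 and EPHA2 stayed called in all 18 alternatives (highest limma adjusted p 0.00651, 0.0167 and 0.0478). IGF1R turned to -0.027 without shControl replicate 1; over the libraries left out it ranged from -0.027 to 0.34. PROS1 lost its call without a filter on low values (log2 difference 0.40, limma adjusted p = 0.117), with the GC trend removed (0.18, 0.204; with the replicate block as well 0.18, 0.0602) and at a threshold of 0.01 (0.40, 0.0383); without single libraries it ranged from 0.23 to 0.53 (limma adjusted p 0.0134 to 0.0994). MET lost its call without a filter (0.49, 0.153), with median-of-ratios scaling (0.45, 0.0552), quantile normalization (0.49, 0.0509), no variance trend (0.49, 0.0536), the GC trend removed (0.30, 0.165; called with the replicate block as well, 0.00578) and a threshold of 0.01 (0.49, 0.0403); without single libraries it ranged from 0.26 to 0.63 (limma adjusted p 0.0101 to 0.162). GAS6 gained a call with the GC trend removed (0.37, 0.026; with the replicate block 0.37, 0.00131). EPHB4 ranged from -0.29 to -0.12 without single libraries (0.0337 to 0.488) and stood at -0.046 with the GC trend removed (0.684). The replicate block alone changed no call of the 10 genes (FGFR1 -0.94, TYRO3 -0.56, MET 0.49, limma adjusted p = 0.000136, PROS1 0.40, 0.00254). MERTK was not tested with a mean of at least 5 FPKM. The count of called genes was 3746, 2063 at a threshold of 0.01, and 2396 to 3619 without single libraries (2443 without shTRMT6 replicate 1 and 2396 without shTRMT6 replicate 2). Of the 25 other genes named by rule, 6 lost a call in at least 1 alternative (19 of 450 values) and none changed sign. The rule took genes with large called differences or a pattern like that of AXL in these same data. Few losses were therefore likely from the choice itself, and the tally is no support for these genes. Markers and genes named after their values were seen are not in that tally. Among them ERBB2, YAP1 and EPCAM lost a call in settings given above. Depth is known only roughly and no interval was drawn from it.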
